A study of Homo sapiens with 5 samples.

Results

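The Hippo pathway core and its regulators were followed in MCF10A SAM cells in which the endogenous JUN gene was activated. The 38 genes were chosen by name, as the rows of the count table whose Entrez identifiers carry the listed symbols, and all 38 were found among the 23459 genes of the table. They comprise 14 kinases and kinase partners, 15 scaffolds and junction proteins and 9 TEAD-side factors. MCF10A is an immortalised, non-tumorigenic human mammary epithelial line. The SAM derivative carries dCas9-VP64 and MCP-p65-HSF1, which a guide RNA brings to a chosen promoter, and per the labels it was grown from picked single clones, how many not being stated. Messenger RNA was measured by QuantSeq 3′ sequencing in 3 libraries of cells infected with a non-targeting control guide (NTC) and in 2 libraries of cells infected with sgJUN#1, a guide against the JUN promoter. All 5 libraries share this origin from picked clones, both SAM constructs and a medium with horse serum, insulin, hydrocortisone, cholera toxin and EGF. Whether both groups came from the same clone is not stated. The labels of these libraries do not name YAP5SA, the Hippo-insensitive YAP mutant used elsewhere in the study.

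The Hippo pathway is a kinase cascade that keeps the co-activators YAP (gene YAP1) and TAZ (gene WWTR1) out of the nucleus. The kinases MST1 and MST2 (genes STK4 and STK3), with the adaptor SAV1, activate LATS1 and LATS2 with their partners MOB1A and MOB1B, and LATS kinases phosphorylate YAP and TAZ. Unphosphorylated YAP and TAZ bind TEAD transcription factors and switch on target genes, some of which encode inhibitors of YAP itself. In epithelial cells the cascade reads cell contacts, polarity and tension through scaffolds such as NF2, KIBRA (gene WWC1), PTPN14 and the angiomotins. Much of this regulation acts through phosphorylation and protein localisation, which counts of mRNA do not measure.

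Library totals ran from 2455627 to 4988062 counts, and levels are given as CPM, the counts of a gene divided by the library's size and scaled to 1e6, on library sizes scaled by the TMM method. JUN, the gene targeted by the guide, had 25.0, 36.2 and 9.32 CPM across the NTC libraries and 172 and 265 CPM under sgJUN#1, so the groups were separate for the activated gene. The fitted log2 fold change, sgJUN#1 over NTC as throughout, was 3.25 (SE 0.484), and its adjusted p-value in edgeR was 0.0733, so JUN itself did not pass the threshold of 0.05 there. It passed with DESeq2. Of 8 mammary epithelial markers all had counts in both groups, led by KRT5, and their summed level ran from 333 to 673 CPM in NTC and was 680 and 392 CPM in sgJUN#1. KRT14, a basal keratin, was low, with 4 to 13 counts in any library. The collagen genes COL1A1, COL1A2 and COL3A1 had at most 11 counts in a library, although PDGFRA and DCN, listed with them as fibroblast markers, were present in all 5, and the 7 fibroblast markers summed to 191 to 300.1 CPM in NTC and to 180.0 and 218 CPM in sgJUN#1. The immune and endothelial lists summed to at most 29.7 and 12.2 CPM in any library, and CD3E had no count.

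None of the Hippo pathway genes passed the threshold, an adjusted p-value under 0.05 over all genes in edgeR's quasi-likelihood test. Of the 38 genes, 35 had enough counts to be tested and 0 passed, where 28 of 13616 genes, or 0.206%, did over the whole table (0.0808% higher and 0.125% lower). DESeq2 also called 0 of them, against 0.975% of all genes that it gave an adjusted p-value. At an unadjusted edgeR p-value under 0.05 there were 6 members, or 17.1% of those tested, against 8.38% of all genes tested (4.02% higher and 4.36% lower). These were AMOTL1 and MAP4K4, with higher levels in sgJUN#1, and AMOTL2, SAV1, VGLL3 and AJUBA, with lower ones. That count was 7, 7 and 6 without NTC replicates 1, 2 and 3, and it fell in the fits that kept a lone sgJUN#1 library. The share over all genes in those fits was not worked out. Of the 35, 24 (68.6%) had a log2 fold change below 0, as did 51.0% of all genes tested, and the median was -0.13 against -0.01. The groups of libraries did not overlap for 13 of them (37.1%), 5 higher and 8 lower in sgJUN#1, where the whole table gave 25.0%, with 12.2% higher and 12.8% lower. In bulk RNA a change in the share of cells of one kind and a change of RNA per cell cannot be told apart. Neither the shift in direction nor the share without overlap was tested as a property of the list.

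**Figure D1:**
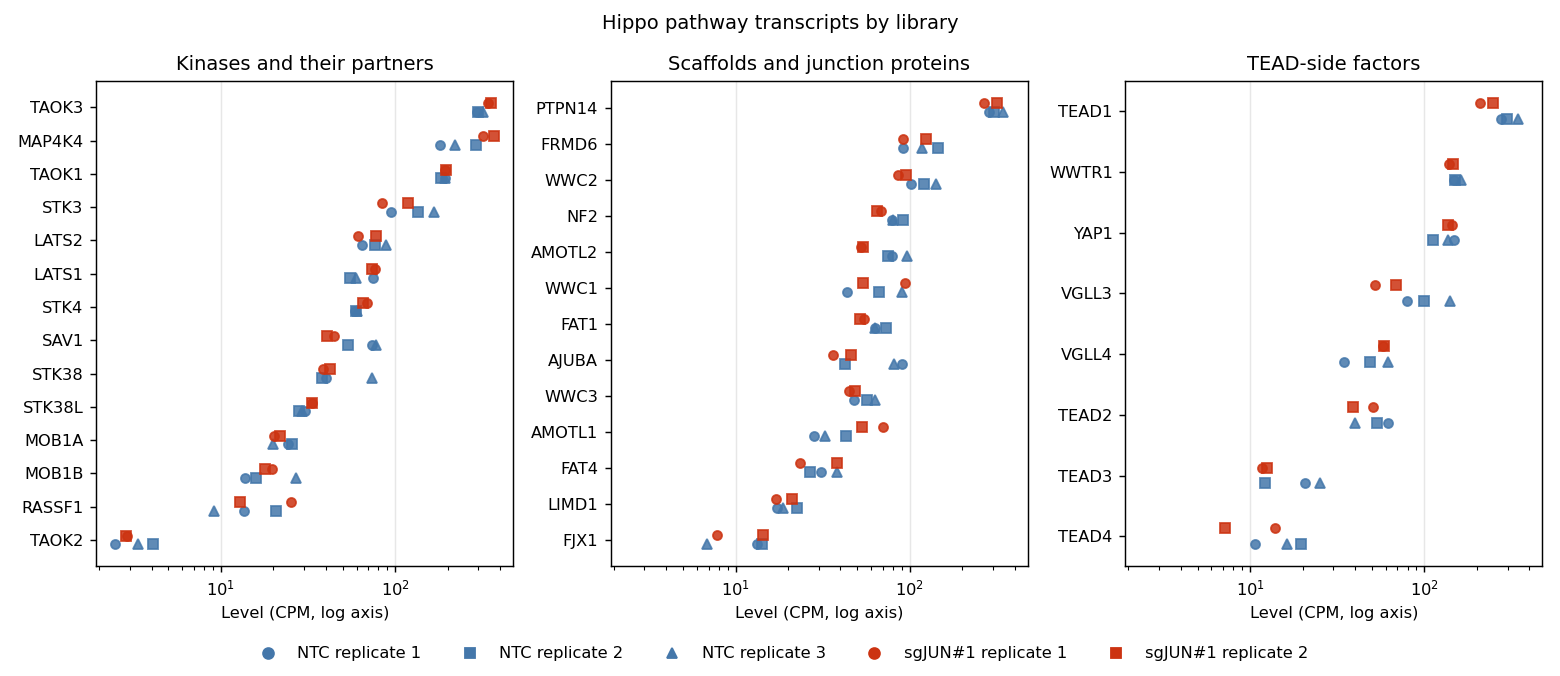
Level of each tested gene in every library in CPM on a log axis, in 3 panels by role, with NTC in blue and sgJUN#1 in red and 1 symbol shape per replicate number. The red and blue points lie close together for most genes, and AMOTL1, at 70.4 and 53.3 CPM in sgJUN#1 against at most 43.1 CPM in NTC, is among the few with a visible gap.

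Among the TEAD-side factors, both co-activators differed between the groups by less than the error of the fit. YAP1 (Entrez 10413, GRCh37 chromosome 11, 101981178 to 102104155) stood at 147, 112 and 136 CPM in NTC replicates 1 to 3 and at 144 and 136 CPM in sgJUN#1 replicates 1 and 2. Both sgJUN#1 libraries lay inside the NTC range. Fitted, the log2 fold change was 0.09 (SE 0.199), with a 95% interval of -0.36 to 0.53 and an edgeR adjusted p-value of 0.946. As a ratio to NTC, the interval for YAP1 ran from 0.779 to 1.45.

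WWTR1 (Entrez 25937, chromosome 3, 149235022 to 149454501), which encodes TAZ, had 148, 150.2 and 163 CPM across the NTC libraries and 139 and 146 CPM under sgJUN#1. Both sgJUN#1 libraries were just under the lowest NTC library. In the fit the log2 fold change was -0.11 (SE 0.184, 95% interval -0.52 to 0.31, adjusted p-value 0.92 in edgeR). The difference was within the error of the fit even though the groups did not overlap.

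The TEAD genes encode the DNA-binding partners through which YAP and TAZ act, and all 4 had a log2 fold change below 0 without passing the threshold. TEAD1 (chromosome 11, 12695968 to 12966284) had 276, 298 and 344 CPM across the NTC libraries and 209 and 247 CPM under sgJUN#1, and the groups did not overlap. Its log2 fold change was -0.43 (SE 0.200, 95% interval -0.88 to 0.02, adjusted p-value 0.621 in edgeR). TEAD3 had 20.6, 12.2 and 25.1 CPM across the NTC libraries and 11.8 and 12.5 CPM under sgJUN#1, so NTC replicate 2 was at the sgJUN#1 level and the other two NTC libraries above it. Its log2 fold change was -0.69 (SE 0.332, adjusted p-value 0.628 in edgeR). TEAD4 varied within both groups, with 10.7, 19.5 and 16.2 CPM in NTC and 13.8 and 7.16 CPM in sgJUN#1, and had a log2 fold change of -0.51 (SE 0.371), which was -1.10 without sgJUN#1 replicate 1 and -0.14 without sgJUN#1 replicate 2. TEAD2 had 61.9, 53.3 and 40.1 CPM across the NTC libraries and 50.6 and 39.0 CPM under sgJUN#1, with a log2 fold change of -0.20 (SE 0.249) that ran from -0.41 to -0.028 with single libraries left out. In TEAD2 and TEAD4 the libraries of the groups overlapped. Annotated transcripts of TEAD3 and TEAD4 share a stretch of 50 bases within their last 500 bases, where reads could be split between them. Whether the reads of these libraries cover that stretch was not examined.

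The vestigial-like proteins bind TEADs at the surface that YAP uses, and VGLL4 is known as a competitor of YAP. VGLL3 (Entrez 389136, chromosome 3, 86925538 to 87040299) had 78.9, 100.1 and 140.4 CPM across the NTC libraries and 52.0 and 69.1 CPM under sgJUN#1. Both sgJUN#1 libraries were below every NTC library, while the NTC libraries themselves spread widely (106.5 ± 31.2 CPM, SD, n = 3, against 60.5 ± 12.1 CPM, n = 2). The log2 fold change was -0.82 (SE 0.276, 95% interval -1.44 to -0.20), the lowest among the 35 tested genes, with an edgeR adjusted p-value of 0.438. VGLL4 had 34.7, 48.4 and 61.9 CPM across the NTC libraries and 58.0 and 58.7 CPM under sgJUN#1, within the NTC range, and an exon of VGLL4 overlaps one of ATG7 on the opposite strand by 1597 bases. VGLL1 had no count in any library, which allows a level of up to 0.619 to 1.22 CPM depending on the library.

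The kinases and their partners were divided evenly by direction, with 7 of the 14 above 0 and 7 below, and a median log2 fold change of 0.00. LATS1 (chromosome 6, 149979289 to 150039241) had 74.3, 54.9 and 59.2 CPM across the NTC libraries and 76.8 and 73.3 CPM under sgJUN#1, and NTC replicate 1 lay between the sgJUN#1 libraries. Its log2 fold change was 0.26 (SE 0.208, 95% interval -0.21 to 0.72). LATS2 (chromosome 13, 21547175 to 21635725), the paralogue that YAP is known to induce, had 64.1, 76.5 and 88.7 CPM across the NTC libraries and 61.5 and 77.3 CPM under sgJUN#1, with the groups overlapping. Its log2 fold change was -0.14 (SE 0.221, 95% interval -0.64 to 0.35). The edgeR adjusted p-values of LATS1 and LATS2 were 0.789 and 0.905.

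SAV1, the scaffold of the MST kinases, had the lowest log2 fold change of the kinase module. SAV1 (Entrez 60485, chromosome 14, 51098776 to 51135024) had 73.7, 53.7 and 77.9 CPM across the NTC libraries and 44.4 and 40.4 CPM under sgJUN#1. Both sgJUN#1 libraries were below all 3 NTC libraries. Fitted, the log2 fold change was -0.69 (SE 0.230, 95% interval -1.21 to -0.18, adjusted p-value 0.433 in edgeR). An exon of SAV1 overlaps one of ATL1 on the opposite strand by 1789 bases, and reads there cannot be told apart without strand. ATL1 held 75 to 136 counts in a library against 113 to 351 for SAV1, and its log2 fold change was 0.04.

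The MST kinases themselves differed in how closely their libraries agreed. STK4 (MST1) had 58.6, 59.8 and 60.3 CPM across the NTC libraries and 68.7 and 65.1 CPM under sgJUN#1, a small separation with a log2 fold change of 0.17 (SE 0.188, adjusted p-value 0.86 in edgeR). STK3 (MST2) ranged from 94.3 to 168 CPM in NTC and stood at 84.4 and 118 CPM in sgJUN#1, with a log2 fold change of -0.39 (SE 0.274) that ran from -0.64 to -0.16 with single libraries left out. MOB1A, at 24.2, 25.6 and 19.96 CPM in NTC and 20.2 and 21.8 CPM in sgJUN#1, had a log2 fold change of -0.14 (SE 0.242). MOB1B, at 13.8, 15.9 and 26.8 CPM in NTC and 19.6 and 17.9 CPM in sgJUN#1, had -0.02 (SE 0.322). The sgJUN#1 libraries lay inside the NTC range for both MOB1 genes. MOB1B shares 116 exon bases with DCK on the same strand.

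MAP4K4 encodes a kinase that can activate LATS beside the MST kinases. MAP4K4 (Entrez 9448, chromosome 2, 102313312 to 102511152) had 182, 291 and 220.5 CPM across the NTC libraries and 317 and 370.3 CPM under sgJUN#1. Both sgJUN#1 libraries were above every NTC library, with NTC replicate 2 close below them. In the fit the log2 fold change was 0.57 (SE 0.231, 95% interval 0.05 to 1.09, adjusted p-value 0.542 in edgeR). The TAO kinases, which phosphorylate the MST kinases, had smaller values, with 0.19 for TAOK3, 0.02 for TAOK1 and -0.17 for TAOK2. TAOK2 rested on only 8 to 15 counts a library. For the LATS-related kinases STK38 and STK38L the log2 fold changes were -0.33 and 0.19, and for the MST-binding protein RASSF1 it was 0.46 (SE 0.395), none past the threshold.

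**Figure D2:**
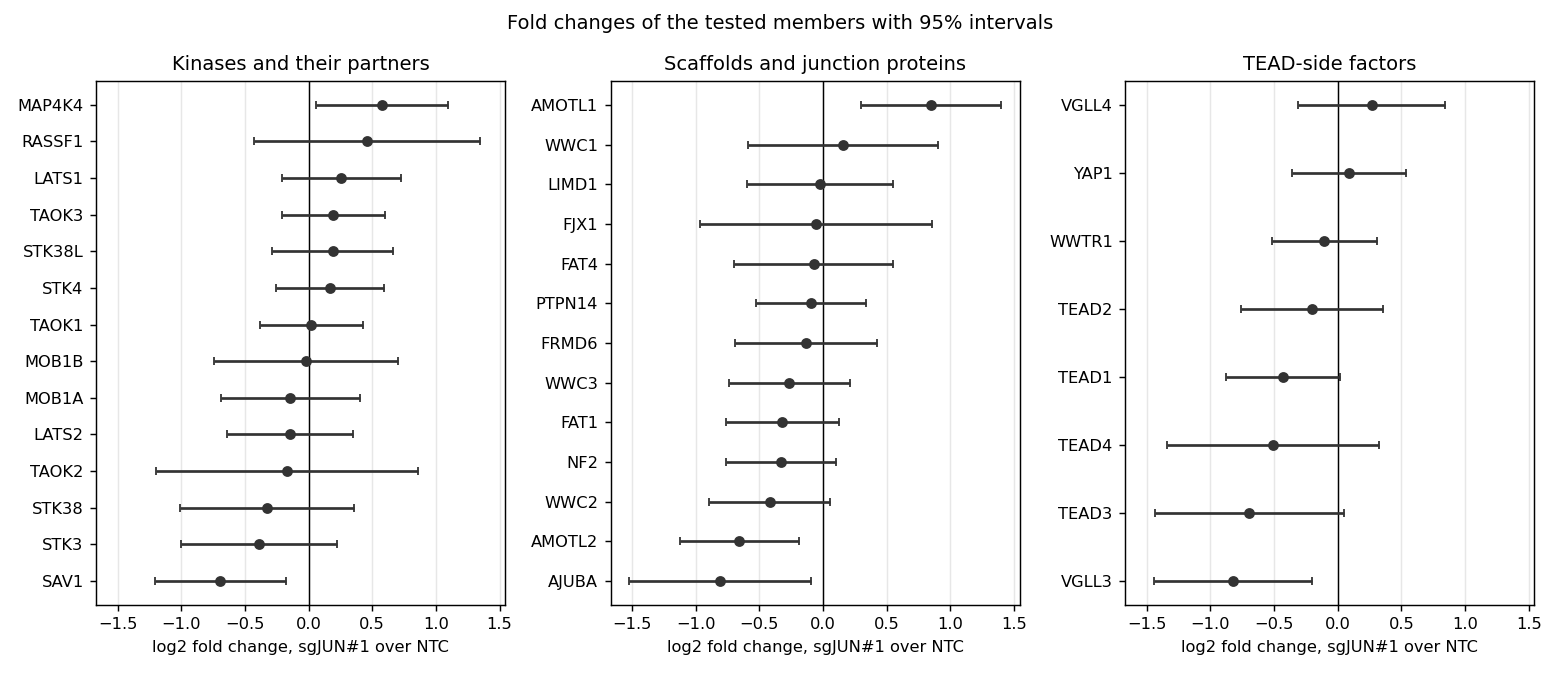
Log2 fold change of sgJUN#1 over NTC for each tested gene from the edgeR fit on 5 libraries, with bars for the 95% interval, in 3 panels by role and sorted within each. The intervals of AMOTL1 and MAP4K4 lie above 0, those of AMOTL2, AJUBA, SAV1 and VGLL3 lie below 0, and the other 29 cross 0; the intervals are not adjusted for the number of genes.

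Of the 13 scaffolds and junction proteins tested none passed the threshold. The log2 fold change was below 0 for 11 of them, against 51.0% of all genes tested, with a median of -0.13. For 7 of these 11 the libraries of the groups overlapped. Of the 13, the groups did not overlap for 5 (38.5%), 4 of them lower, against 25.0% of all genes tested, with 12.8% lower. These shares were not tested. The angiomotins, which hold YAP at junctions and in the cytoplasm, had log2 fold changes of opposite sign. AMOTL1 (Entrez 154810, chromosome 11, 94439597 to 94609913) had 28.3, 43.1 and 32.6 CPM across the NTC libraries and 70.4 and 53.3 CPM under sgJUN#1. AMOTL2 (Entrez 51421, chromosome 3, 134074189 to 134094321), a common YAP target, had 78.9, 74.5 and 96.5 CPM across the NTC libraries and 52.2 and 53.7 CPM under sgJUN#1. In both genes the groups did not overlap. Means were 34.7 ± 7.62 (SD, n = 3) and 61.8 ± 12.1 CPM (SD, n = 2) for AMOTL1, and 83.3 ± 11.6 and 52.9 ± 1.03 CPM for AMOTL2. The log2 fold change of AMOTL1 was 0.85 (SE 0.245, 95% interval 0.30 to 1.40), the highest of the 35, with an edgeR adjusted p-value of 0.334. That of AMOTL2 was -0.66 (SE 0.207, 95% interval -1.12 to -0.19), with an edgeR adjusted p-value of 0.392. Whether the paralogues differed in their response was not tested. The third angiomotin, AMOT, had 0 to 3 counts a library and was not tested.

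AJUBA encodes a LIM-domain protein that restrains LATS at junctions. AJUBA (Entrez 84962, chromosome 14, 23440386 to 23451760) measured 90.8 and 80.7 CPM for NTC replicates 1 and 3 but 42.7 CPM for NTC replicate 2, and 36.1 and 46.2 CPM in sgJUN#1. NTC replicate 2 lay between the sgJUN#1 libraries. The log2 fold change was -0.81 (SE 0.317, 95% interval -1.52 to -0.10, adjusted p-value 0.524 in edgeR). It ran from -0.61 without NTC replicate 1 to -1.07 without NTC replicate 2, and passed the threshold in none of the 5 fits that left out a library. LIMD1, a related protein, stood at 17.3 to 22.4 CPM across the NTC libraries and at 17.1 and 21.1 CPM in sgJUN#1, with a log2 fold change of -0.03. An exon of LIMD1 overlaps LIMD1-AS1 on the opposite strand, which held 29 to 40 counts a library.

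NF2 (merlin), FAT1 and WWC2 had lower levels in both sgJUN#1 libraries than in any NTC library, by less than the error of the fit allows to call. NF2 (chromosome 22, 29999545 to 30094587) recruits LATS to the membrane, and had 79.5, 91.6 and 80.3 CPM across the NTC libraries and 67.9 and 65.1 CPM under sgJUN#1. Its log2 fold change was -0.33 (SE 0.192, adjusted p-value 0.702 in edgeR). FAT1, a giant atypical cadherin, ranged from 63.2 to 73.3 CPM in NTC and stood at 54.5 and 51.9 CPM under sgJUN#1, with a fitted log2 fold change of -0.32. WWC2, a KIBRA paralogue, had 102, 120.5 and 141 CPM across the NTC libraries and 85.9 and 95.5 CPM under sgJUN#1, a log2 fold change of -0.42 (SE 0.211, adjusted p-value 0.654 in edgeR). An exon of CLDN22 on the opposite strand overlaps one of WWC2 by 2177 bases, and CLDN22 had a log2 fold change of -0.19.

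The remaining scaffolds stayed near 0 or spread widely. PTPN14, a phosphatase that binds YAP, had 285, 305 and 343 CPM across the NTC libraries and 267 and 316 CPM under sgJUN#1, with a log2 fold change of -0.10. FRMD6, the human homologue of Drosophila Expanded, had -0.13. The protocadherin ligand DCHS1 had 1 count in all 5 libraries together and was not tested. The groups overlapped for PTPN14 and FRMD6.

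The study lists genes induced by YAP5SA in other MCF10A cells and divides them into clusters 1 to 3 by how they responded to JUN there, and 10 of the 38 genes are on it. In the study, JUN overexpression blunted the induction of cluster 1 and left cluster 2 almost or wholly unaffected. Cluster 3 was mainly known target genes induced by AP-1, the dimers of JUN and FOS proteins. The list was not made on these libraries, and the counts and medians below pool the clusters. The 10 are TEAD4 in cluster 1, AMOTL2, AJUBA, LATS2, FJX1 and WWC1 in cluster 2, and YAP1, VGLL3, FAT4 and WWC3 in cluster 3. All 10 were tested, 8 had a log2 fold change below 0, and the median was -0.20. Of the other 28 genes 25 were tested, 16 were below 0, and the median was -0.11. In neither set did any gene pass the threshold, and the groups did not overlap for 2 of the 10, AMOTL2 and VGLL3, against 11 of the 25, where the share over all genes tested was 25.0%. The difference between the sets was not tested. Relative to the NTC mean, the median of the 10 genes was -0.14, -0.02 and 0.22 on the log2 CPM scale in NTC replicates 1 to 3, and -0.36 and -0.22 in sgJUN#1 replicates 1 and 2. Both sgJUN#1 libraries were thus lower than all NTC libraries by this median, and the NTC libraries alone spanned a similar distance.

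Several of these genes were set by single libraries. WWC1 (KIBRA) had 43.7, 66.3 and 90.1 CPM across the NTC libraries and 94.3 and 54.0 CPM under sgJUN#1, so that NTC replicates 2 and 3 lay between the sgJUN#1 libraries and the log2 fold change was 0.16 (SE 0.331). FAT4, another atypical cadherin, had 30.8, 26.9 and 38.4 CPM across the NTC libraries and 23.5 and 38.3 CPM under sgJUN#1, with a log2 fold change of -0.07 (SE 0.279). FJX1, the homologue of Drosophila four-jointed, had 13.2, 14.2 and 6.88 CPM across the NTC libraries and 7.84 and 14.3 CPM under sgJUN#1, with a log2 fold change of -0.05 (SE 0.406). For WWC1, FAT4 and FJX1, and likewise for YAP1, LATS2 and MOB1B, the sign of the log2 fold change turned when single libraries were left out, as given in the closing section. WWC3 had 48.1, 56.6 and 63.2 CPM across the NTC libraries and 45.0 and 48.3 CPM under sgJUN#1, and had a log2 fold change of -0.27 (SE 0.212).

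**Figure D3:**
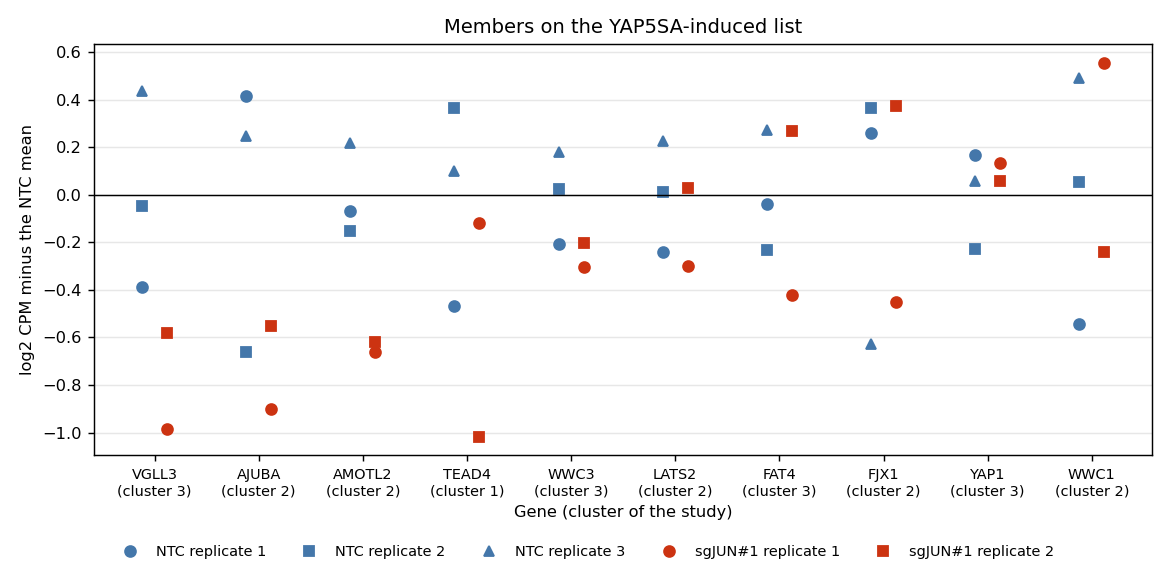
Log2 CPM of the 10 genes on the YAP5SA-induced list in each library, minus the mean of the 3 NTC libraries, with NTC in blue and sgJUN#1 in red and the study's cluster under each name. AMOTL2 and VGLL3 have both red points below all blue points, and the colours overlap in the other 8.

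For comparison within the same libraries, the YAP targets ANKRD1 and THBS1 passed the threshold with log2 fold changes of -4.37 (SE 0.283) and -3.19 (SE 0.268), and edgeR adjusted p-values of 2.2e-04 and 0.00112. The YAP targets CCN1 and CCN2 did not pass, with log2 fold changes of -1.12 (SE 0.364) and -0.87 (SE 0.381), and edgeR adjusted p-values of 0.427 and 0.590. None of the 35 Hippo pathway genes had a log2 fold change beyond -0.82 or 0.85, and for 23 of them the 95% interval lay within 1 log2 unit of 0 on both sides. The standard errors of the 35 ran from 0.179 to 0.460, with a median of 0.242. A p-value that misses the threshold does not show that a gene was the same in both groups, and for the other 12 genes the interval reached beyond 1 log2 unit on one side.

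The TEAD recognition sequence CATTCC was looked for, on either strand, in the 250 bases before the annotated start sites of the genes, to place the YAP-facing members in sequence context. RefSeq promoter windows were at hand for 31 of the 38 genes, as 46 windows, and 8 genes held the motif: AJUBA, AMOTL2, PTPN14, RASSF1, TAOK3, VGLL1, WWC2 and YAP1, with 1 window each. Counted by window, 8 of the 46 held it, and over all RefSeq windows of this length 11.9% did. The difference was not tested. The AP-1 sequence TGACTCA was in 0 of the 46 windows and in 4.20% of all windows. A match of these letters is a description and not a binding site, and distal elements were not searched.

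The windows around the motif of AMOTL2 and AJUBA are shown because these genes held the motif and had log2 fold changes of -0.66 and -0.81. They were thus picked with their values known. Other genes with the motif had 0.46 (RASSF1), 0.19 (TAOK3) and -0.10 (PTPN14), and WWC2 and YAP1 are given below. SAV1 and VGLL3, with -0.69 and -0.82, had no CATTCC in the window examined. Coordinates are GRCh37, found by exact match of the RefSeq sequence, both genes lie on the minus strand, and the motif is in capitals (GGAATG is CATTCC on the other strand). The motif begins 69 bases before an annotated start site of AMOTL2 and 59 bases before one of AJUBA. Both start sites lie inside the genes, which begin at 134094321 for AMOTL2 and at 23451760 for AJUBA on this strand. Other transcripts of both genes have exons in these windows, and each gene has another window without CATTCC.
AMOTL2, chr3:134093341-134093370: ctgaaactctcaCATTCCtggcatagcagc
AJUBA, chr14:23446093-23446122: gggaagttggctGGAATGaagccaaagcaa

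The 250 bases before the start of YAP1 and of WWC2, both on the plus strand, are shown as members with a motif and with differing values, since YAP1 had a log2 fold change of 0.09 and WWC2 one of -0.42. The WWC2 window holds the motif at 2 places, the first beginning 222 bases before the start, and the YAP1 window holds 1 that begins 162 bases before the start.
YAP1, chr11:101980928-101981177: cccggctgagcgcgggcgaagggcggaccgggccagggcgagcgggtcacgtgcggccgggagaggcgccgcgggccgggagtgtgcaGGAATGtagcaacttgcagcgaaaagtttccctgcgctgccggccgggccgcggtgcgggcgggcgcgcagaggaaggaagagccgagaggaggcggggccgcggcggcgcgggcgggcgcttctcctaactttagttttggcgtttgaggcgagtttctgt
WWC2, chr4:184020160-184020409: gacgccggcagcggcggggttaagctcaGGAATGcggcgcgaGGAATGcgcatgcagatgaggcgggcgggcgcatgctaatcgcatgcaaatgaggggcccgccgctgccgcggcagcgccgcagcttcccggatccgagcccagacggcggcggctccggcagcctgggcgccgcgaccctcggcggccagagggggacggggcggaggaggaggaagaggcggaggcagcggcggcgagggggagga

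Leaving out single libraries changed the size of the values of the 8 genes with the smallest edgeR p-values but not their direction. The 8 were picked by p-value on these same libraries, which favours a kept direction, so the kept direction is no independent support. AMOTL1 ran from 0.63 to 1.03 in log2 fold change, MAP4K4 from 0.42 to 0.77, SAV1 from -0.84 to -0.59 and AMOTL2 from -0.73 to -0.54. VGLL3 ran from -1.02 to -0.57, TEAD1 from -0.54 to -0.31, TEAD3 from -0.92 to -0.46, and AJUBA from -1.07 to -0.61. The lowest edgeR adjusted p-value of any Hippo pathway gene in these 5 fits was 0.160, for AJUBA without NTC replicate 2.

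**Figure D4:**
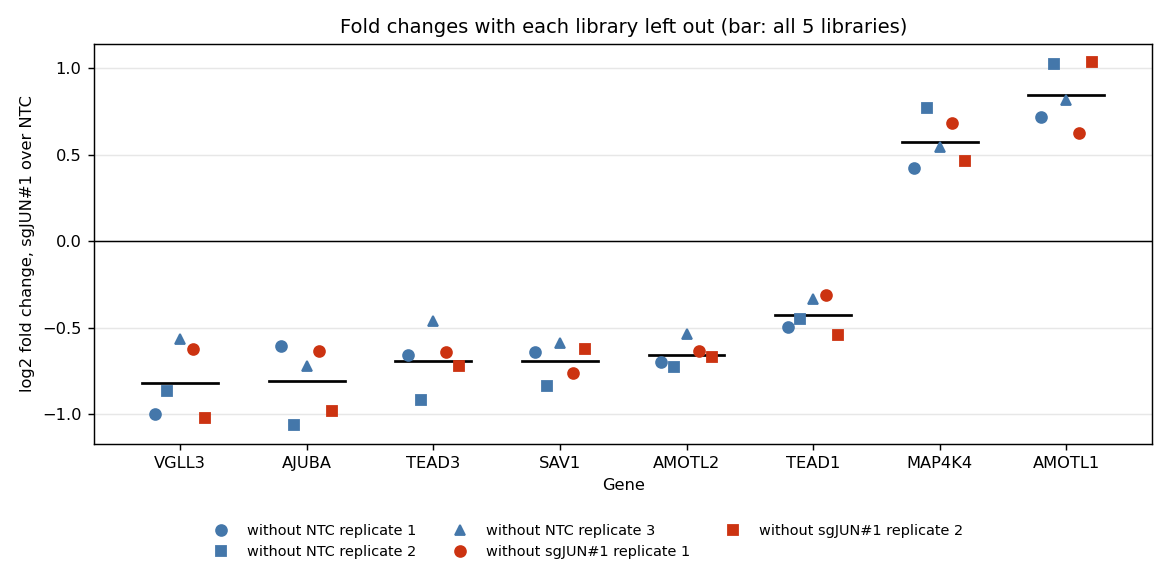
Log2 fold change of the 8 genes with the smallest edgeR p-values in fits that each left out 1 library, coloured by the group of the library left out, with a bar for the fit on all 5 libraries. All points of a gene lie on the same side of 0, between -1.07 for AJUBA and 1.03 for AMOTL1. The genes were picked by p-value on the same 5 libraries, which favours this.

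A wider list of 66 genes that act around the pathway was examined beside these, of which 61 were tested. It holds polarity and junction proteins, the STRIPAK phosphatase complex that opposes MST, further kinases and RASSF proteins, and 14-3-3 and degradation factors that retain or destroy YAP. Of the 61, 0 passed the edgeR threshold and 6 (9.84%) had an unadjusted p-value under 0.05, 31 were above 0 and 30 below, the median log2 fold change was 0.02, and the groups did not overlap for 13 (21.3%). Over all genes tested 0.206% passed, 8.38% had an unadjusted p-value under 0.05 and 25.0% did not overlap, so the wider list was close to the whole table. CSNK1D, which encodes casein kinase 1 delta and primes YAP for degradation after LATS, had the smallest p-value. It had 97.6, 108 and 103 CPM across the NTC libraries and 205 and 185 CPM under sgJUN#1, well separated, with a log2 fold change of 0.92 (SE 0.183, 95% interval 0.51 to 1.33). Its edgeR adjusted p-value was 0.113, and it passed the threshold with DESeq2 (adjusted p-value 0.0181) and in edgeR with no expression filter (0.0390), while over all 12 alternatives its adjusted p-value ran from 0.0181 to 0.606. PALS1, a polarity scaffold, had 149.9, 132 and 153 CPM across the NTC libraries and 99.5 and 94.5 CPM under sgJUN#1, a log2 fold change of -0.58 (SE 0.190, adjusted p-value 0.424 in edgeR). TNIK, a kinase related to MAP4K4, had 13.2, 20.4 and 19.3 CPM across the NTC libraries and 24.6 and 39.7 CPM under sgJUN#1, a log2 fold change of 0.86 (SE 0.298, adjusted p-value 0.459 in edgeR). In the 16 STRIPAK genes no log2 fold change went beyond -0.39 or 0.42.

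Among the epithelial markers, EPCAM and CDH1, which encodes E-cadherin, were singled out after their values were seen, because they sit at the junctions where several of the scaffolds act. EPCAM had 23.7, 7.33 and 23.3 CPM across the NTC libraries and 144 and 56.5 CPM under sgJUN#1, with a fitted log2 fold change of 2.44 and an adjusted p-value of 0.210 in edgeR. CDH1 had 29.7, 35.4 and 57.9 CPM across the NTC libraries and 103 and 44.4 CPM under sgJUN#1, with 0.85 and 0.607. In both genes sgJUN#1 replicate 1 was the highest library. The other 6 markers of the list did not share one direction, with log2 fold changes of -1.16 for KRT14, -0.40 for KRT5, -0.11 for TP63, 0.05 for KRT18, 0.17 for ITGA6 and 1.80 for KRT17. None of the 8 passed the threshold. The part of these markers in the values of the Hippo pathway genes was not tested.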

How the data were processed

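Messenger RNA was measured in 3 NTC and 2 sgJUN#1 libraries, with groups and replicate numbers taken from the sample titles. The deposited values are raw counts per Entrez gene. Per the labels and the study's methods, the authors extracted RNA on columns, made QuantSeq 3′ FWD libraries, trimmed reads with Cutadapt (4.2 in the submitters' processing notes), aligned them to hg19 with Bowtie2 (2.3.5.1 there) and counted with countOverlaps. The annotation, the handling of strand and multiple alignments, and molecular identifiers are not given in the sources used here, so counting limits cover counting error only. The study calls its sequencing replicates biological, but no source used here says whether these libraries came from separate cultures, and p-values measure the spread between them. The study gives n = 2 for its own comparison of these groups, whereas all 3 libraries that the labels name NTC were used here, so the control group may differ from the study's.

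Counts were tested with edgeR 4.0.16 (quasi-likelihood F test, TMM, filterByExpr, robust, group as the only term) in R 4.3.3 over 13616 genes, with Benjamini-Hochberg adjustment over all of them and a threshold of 0.05. SE was taken as the absolute log2 fold change over sqrt(F), and 95% intervals use the t distribution. An exact permutation test of 3 against 2 libraries cannot go below p = 0.1, and none was used. Alternatives were DESeq2 1.42.0, limma-voom (limma 3.58.1), RLE size factors, library size alone, no filter, at least 10 counts in every library, a replicate block, and leaving out each library. The scripts were tested on simulated data.

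Symbols came from RefSeq (GRCh38.p14, names only) for 99.4% of genes and positions from GENCODE 44 on GRCh37. Promoter windows came from the RefSeq table (GRCh38.p14) and were placed on GRCh37 by exact match. A 50-base stretch in the last 500 bases of transcripts was shared by 1 pair of members, TEAD3 and TEAD4. Values in every library were given for a core of 14 genes, the 8 with the smallest edgeR p-values and the 10 on the YAP5SA-induced list, 23 in all. Those of FAT1, LIMD1, PTPN14, VGLL4 and WWC2 were added after they were seen. The members and lists were chosen with earlier results of these data known. No 2 libraries of a group were alike within sampling error (chi-square at least 8.22 times its degrees of freedom).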

Additional observations from a re-analysis of the deposited data

How the results depend on the processing

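The count of Hippo pathway genes past the threshold was 0 in all 12 alternatives, with the lowest adjusted p-value of a member at 0.139 (AMOTL1 with no filter). JUN passed with DESeq2 (log2 fold change 3.24, adjusted p-value 7.36e-12) and ran from 2.84 to 3.68 with single libraries left out, with edgeR adjusted p-values of 0.0144 without NTC replicate 2 and 0.00121 without NTC replicate 3, but 0.279 without NTC replicate 1, 0.175 without sgJUN#1 replicate 1 and 0.322 without sgJUN#1 replicate 2. Of the wider list 1 gene, CSNK1D, passed with DESeq2, which called 0.975% of all genes that it gave an adjusted p-value. CSNK1D was also the 1 gene of that list that passed with no filter, where 148 of all 19587 genes did. Leaving out single libraries moved the median log2 fold change between -0.040 and 0.18 for the kinases, -0.31 and -0.16 for the scaffolds, -0.36 and -0.14 for the TEAD-side factors, -0.38 and -0.22 for the members on the YAP5SA-induced list, and -0.16 and -0.036 for those off it. The number of members whose groups did not overlap ran from 15 to 24 without single libraries, which is higher by construction, since fewer libraries overlap less (a count added after seeing the data). The share over all genes without overlap was not worked out for those fits, so these counts cannot be set against the 25.0% of the full comparison. The cause of the other shifts was not tested.

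The sign of MOB1B turned with DESeq2 (0.0064) and limma-voom (0.027), and ran from -0.21 to 0.35 with single libraries left out. In the same fits FAT4 ran from -0.44 to 0.25, FJX1 from -0.52 to 0.35, WWC1 from -0.31 to 0.51, LATS2 from -0.31 to 0.016 and YAP1 from -0.018 to 0.17. The sign turned without NTC replicate 1 (FJX1, WWC1), NTC replicate 2 (FJX1, YAP1), NTC replicate 3 (FAT4, MOB1B), sgJUN#1 replicate 1 (FAT4, FJX1, LATS2, WWC1) or sgJUN#1 replicate 2 (MOB1B).

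Replicates 1 and 2 exist under NTC and sgJUN#1 alike, but no label says what they mark, and the difference between replicates 1 and 2 correlated between the groups at 0.0146 over genes, so they were not treated as pairs. With the replicate block, JUN had 2.82 (edgeR adjusted p-value 1.15e-04), the kinase median was 0.11, the median off the YAP5SA-induced list was -0.049, FAT4 was 0.043 and MOB1B 0.35, and no Hippo pathway gene passed. The number of libraries, 2 and 3 per group, and standard errors of 0.179 or more limited which changes could be called, and the fits without an sgJUN#1 library assume that the lone one varies like the others.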
